A study of Mus musculus with 39 samples.

Results

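The genes described here are the homeodomain-interacting protein kinases Hipk1, Hipk2, Hipk3 and Hipk4 and the phosphatase regulator Ppp1r8 in mouse oocytes, 2-cell embryos and cumulus cells. Their probes were found by mapping the transcript accession of each array spot to a gene symbol through the RefSeq mouse annotation. This gave 5 of the 18905 genes that could be named and 11 of the 41174 probes: 3 for Hipk1, 2 for Hipk2, 3 for Hipk3, 1 for Hipk4 and 2 for Ppp1r8. The 39 one-colour (Cy3) Agilent arrays each held RNA of 10 pooled oocytes or embryos or of 500 cumulus cells. The labels give the strain of all 39 samples as (B6xDBA/2)F1, and females of this cross gave the oocytes and the donor cumulus cells. OC (n = 7) are unfertilised oocytes, IVF (n = 6) are 2-cell embryos made by in vitro fertilisation, and Cumulus (n = 4) are the cumulus cells that served as nuclear donors. The remaining arrays are of 2-cell embryos cloned by somatic cell nuclear transfer from cumulus cells. All 2-cell embryos, IVF and cloned, were cultured for 24 h. TSA(–) (n = 8) received no inhibitor, TSA(+) (n = 6) received the histone deacetylase inhibitor trichostatin A at 5 nM for 8 h, and Spi-C NT embryos were injected at the pronuclear stage with mRNA of the ETS family transcription factor Spi-C at 1.0 mg/ml (n = 4) or 0.1 mg/ml (n = 4). The study asked which genes activated in the fertilised embryo are not properly activated after nuclear transfer, and whether TSA or Spi-C alters their levels.

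HIPK proteins are nuclear serine/threonine kinases that were named for binding homeodomain transcription factors. They phosphorylate transcription factors and corepressors, among them p53 and CtBP, and mouse embryos that lack both Hipk1 and Hipk2 die before birth. Ppp1r8 encodes NIPP1, a nuclear protein that binds the catalytic subunit of protein phosphatase 1 (PP1), associates with splicing factors and with the Polycomb methyltransferase EZH2, and is needed for early mouse development. In the mouse the main wave of transcription from the embryo's own genome begins at the 2-cell stage, when many maternal mRNAs are being degraded.

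The promoters of Hipk1 and Ppp1r8, which had 1 of 3 and 2 of 2 probes lower in cloned embryos without inhibitor, are shown with that of Hipk3, of which no probe passed the test there. The letters are RefSeq sequences on build GRCm38.p6, from 250 bases before to 50 bases after the annotated start, 5′ to 3′ on the strand of the gene, which is the minus strand for these 3. Capitals mark matches to the ETS core CGGAAG or the PU box GAGGAA on either strand, searched because Spi-C belongs to the ETS family. The first is a Hipk1 window at chr3:103791226-103791525, the next the Hipk3 window at chr2:104494440-104494739, and the last a Ppp1r8 window at chr4:132843120-132843419.
Hipk1: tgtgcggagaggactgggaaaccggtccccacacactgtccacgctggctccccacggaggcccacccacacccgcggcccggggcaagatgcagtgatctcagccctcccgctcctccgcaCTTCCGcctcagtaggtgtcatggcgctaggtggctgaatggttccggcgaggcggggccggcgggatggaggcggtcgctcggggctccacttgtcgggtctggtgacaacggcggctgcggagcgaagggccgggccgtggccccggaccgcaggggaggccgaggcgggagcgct
Hipk3: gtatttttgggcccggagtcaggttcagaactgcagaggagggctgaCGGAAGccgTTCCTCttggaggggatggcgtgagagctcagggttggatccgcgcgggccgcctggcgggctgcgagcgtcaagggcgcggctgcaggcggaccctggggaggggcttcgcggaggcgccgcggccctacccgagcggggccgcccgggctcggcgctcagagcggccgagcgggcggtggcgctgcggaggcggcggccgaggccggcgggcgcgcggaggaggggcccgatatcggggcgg
Ppp1r8: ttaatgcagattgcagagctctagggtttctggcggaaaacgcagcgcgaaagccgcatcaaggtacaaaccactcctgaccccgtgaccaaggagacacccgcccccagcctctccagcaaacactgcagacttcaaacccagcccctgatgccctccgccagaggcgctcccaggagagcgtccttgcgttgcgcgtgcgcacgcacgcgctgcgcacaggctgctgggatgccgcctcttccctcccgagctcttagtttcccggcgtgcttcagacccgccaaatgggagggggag

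The Hipk1 window held 1 ETS core, read as CTTCCG on the strand shown, and the Hipk3 window held 1 ETS core and 1 PU box. The Ppp1r8 window held neither, nor did the windows that are not shown, which are the other windows of Hipk1 and Ppp1r8 and those of Hipk2 and Hipk4. Of all 32851 promoter windows in the table, 16.9% held the ETS core and 28.3% the PU box, so such matches are common and are given as a description only. The GC content of the windows was 72.0% for Hipk1, 76.0% for Hipk3 and 63.0% for Ppp1r8, against a median of 52.7% over all windows. The windows not shown had 51.0% (Hipk1), 80.7% and 51.3% (Hipk2), 56.3% (Hipk4) and 65.0% (Ppp1r8). All 5 genes matched the table, with 8 windows in all, and none of the 8 held the longer ETS consensus CCGGAAGT (3.89% of all windows) or the TATA box TATAAA (13.6% of all windows).

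A level below is the log2 processed intensity of a probe minus the 75th percentile of its array, so 0 means a signal equal to that percentile and each unit is a doubling. The percentile lay between 271 and 512 intensity units in OC, between 792 and 1101 in Cumulus, between 997 and 1587 in IVF, TSA(–) and TSA(+), and between 2115 and 2666 in Spi-C NT. The Cumulus and Spi-C NT arrays were read with another scanner model and software version, on slides and days of their own, so for these groups the scan cannot be told apart from the group. The summed signal of the oocyte markers fitted the labels, at 3017 to 5251 times the 75th percentile in OC and 0.981 to 1.96 times it in Cumulus. That of the cumulus cell markers did too, at 277 to 317 times in Cumulus and 1.44 to 11.6 times in the other groups. Of the 12 cumulus marker probes 9 were higher and 2 lower in Cumulus than in OC (limma, adjusted p under 0.01). The 2-cell markers separated the groups less well, with sums of 30.4 to 47.8 in OC and 154 to 212 in IVF. Their sums were 36.1 to 109.8 in TSA(–), 57.5 to 128 in TSA(+), and 46.4 to 65.6 and 31.0 to 64.4 at 1.0 and 0.1 mg/ml of Spi-C. On this list TSA(–) and Spi-C NT thus overlapped OC. Because each array is a pool, a lower level in every embryo and fewer embryos with the transcript cannot be told apart, and a level relative to the array does not give transcripts per embryo. Nothing states how far the pools came from separate animals, so p-values measure the spread between these samples.

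**Figure D1:**
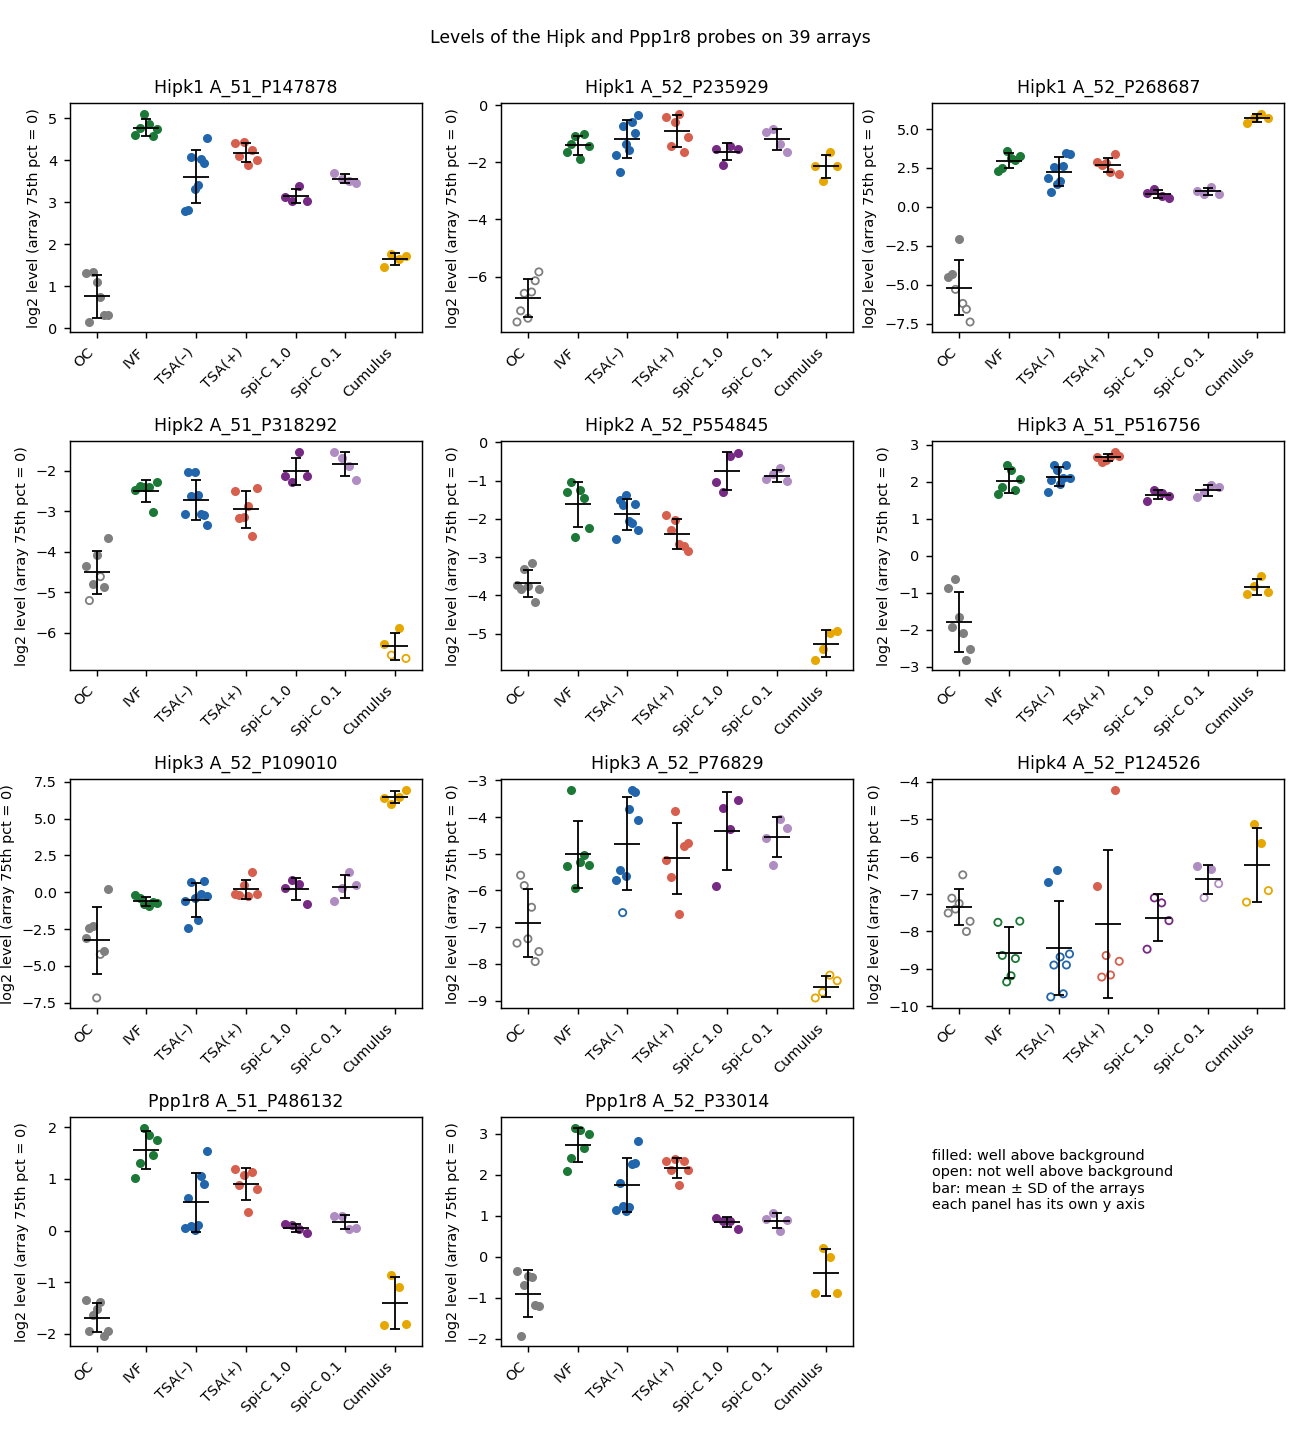
Level of each member probe (log2, array 75th percentile at 0) on each of the 39 arrays, by group, with the mean and SD and open points where the probe was not well above background. Each panel has its own y axis. The leading Hipk1 probe is highest in IVF and lowest in OC, with a mean of 4.78 against 0.75.

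In the first comparison, which asks what is higher in the fertilised 2-cell embryo than in the oocyte, Hipk1, Hipk2, Hipk3 and Ppp1r8 were all higher in IVF than in OC, by every one of their 10 probes. Hipk4 was near background in both. The Hipk1 probe A_51_P147878 had a lowest, median and highest level of 0.15, 0.75 and 1.34 in OC and of 4.57, 4.75 and 5.11 in IVF. The groups were far apart, with every IVF array more than 3 units above every OC array. The difference was 4.02 (SE 0.24), or 16.3-fold, with an adjusted p of 5.79e-15. Adjusted p-values are from limma with the Benjamini-Hochberg method over all 39517 probes tested, and probes under 0.01 were called.

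The other Hipk1 probes were hardly detected in oocytes. A_52_P235929 was well above background on none of the 7 OC arrays and on all 6 IVF arrays, with a mean level of -6.77 ± 0.67 (SD, n = 7) in OC and -1.40 ± 0.33 (SD, n = 6) in IVF, which gives at least a 14-fold rise. The bound sets the IVF mean against, on each OC array, the higher of the lowest signal of any probe well above background and the probe's own signal. A_52_P268687 was well above background on 3 of 7 OC arrays and on all 6 IVF arrays and was called higher in IVF (limma adjusted p = 7.08e-14). The size of its rise is not given, because most OC arrays held a signal near background.

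The Ppp1r8 probe A_52_P33014 ranged from -1.93 through a median of -0.68 to -0.34 in OC and from 2.10 through 2.82 to 3.15 in IVF, without overlap. The differences of the Ppp1r8 probes were 3.63 (SE 0.29) for A_52_P33014 and 3.24 (SE 0.24) for A_51_P486132, 12.4-fold and 9.46-fold. Hipk1 and Ppp1r8 were on the list of zygotic genes that the study chose on these arrays, so their rise is not independent evidence of its direction.

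Hipk3 rose by its brightest probe too. A_51_P516756 went from a median of -1.94 in OC (lowest -2.82, highest -0.62) to 1.96 in IVF (lowest 1.66, highest 2.45), a difference of 3.81 (SE 0.25), and the groups did not overlap. A_52_P109010 rose by 2.66 (SE 0.68) with overlapping groups. The dim probe A_52_P76829 was not well above background on any OC array and is at least 1.13-fold higher in IVF, a call that was lost without IVF replicate 2 (adjusted p = 0.0114) and that turned with normexp background correction (-0.85).

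Hipk2, a kinase best known for acting on p53 after DNA damage, rose by about the same amount on both probes. A_52_P554845 ranged from -4.18 through -3.77 to -3.16 in OC and from -2.47 through -1.37 to -1.03 in IVF, a rise of 2.07 (SE 0.24) or 4.20-fold. A_51_P318292 rose by 2.02 (SE 0.25). On neither probe did the groups overlap.

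Hipk4, a family member expressed mainly in testis, was well above background on 8 of the 39 arrays in all and on none of the OC or IVF arrays. No level change is given for it between these groups, and its adjusted p was 0.0905. It passed the filter on low intensity through arrays of the cloned embryos.

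Over all probes tested, 66% were called in this comparison, 23.3% as higher and 42.7% as lower, against 10 of the 11 member probes higher. Groups did not overlap for 8 member probes, against 51.8% of all probes. The median difference was 3.24 over the members and -0.88 over all probes, and another centring moved the latter to -1.55 (median centring) or -0.29 (quantile) and neither turned any of the 10 called member probes. Within the 2 slides and the 4 scan days that held both groups, all 10 called probes were higher in IVF each time, the leading Hipk1 probe by 3.88 to 4.47 across scan days. TSA(–) embryos also exceeded OC by the same 10 probes, where 23.5% of all probes were higher and 70.2% were called, and that comparison shares its OC arrays with this one.

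**Figure D2:**
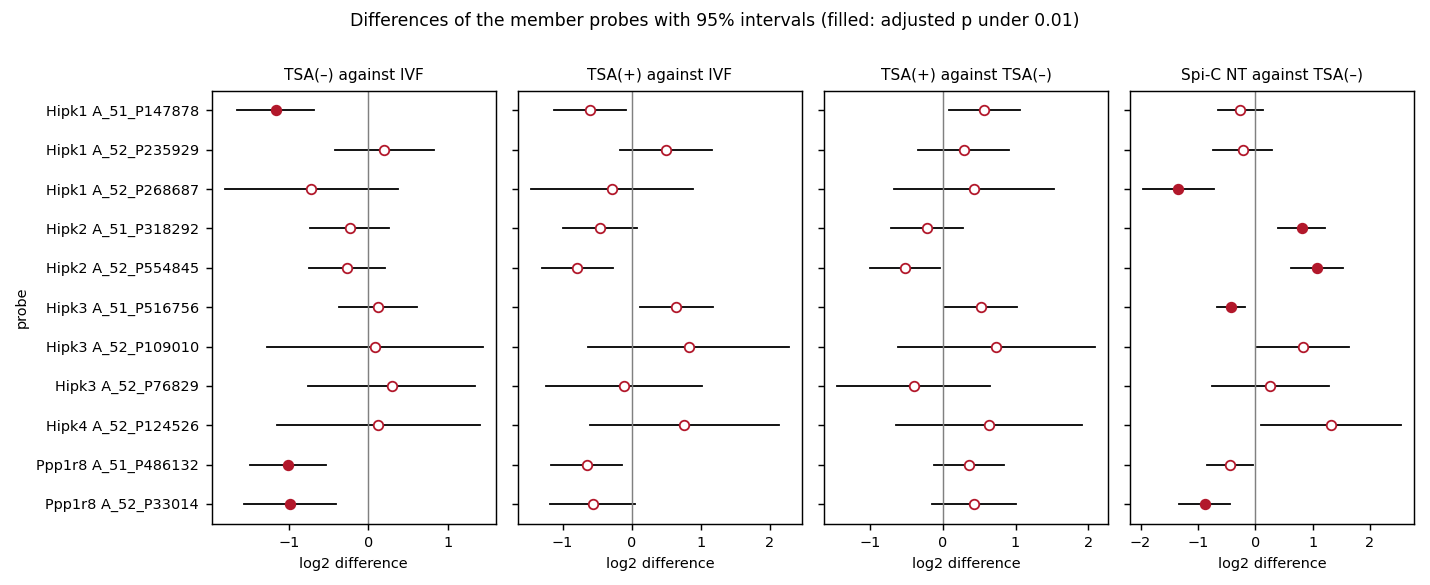
Log2 difference (x axis) of each of the 11 member probes in 4 comparisons between embryos, with its 95% confidence interval from limma and filled points for an adjusted p under 0.01. Hipk1 A_51_P147878 and both Ppp1r8 probes are filled below 0 in TSA(–) against IVF, no point is filled in the comparisons with TSA(+), and both Hipk2 probes are filled above 0 in Spi-C NT against TSA(–).

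Cloned embryos that received no TSA were set against IVF to find genes that are lower after nuclear transfer. Hipk1 (by 1 of 3 probes) and Ppp1r8 (by both probes) were lower in TSA(–), and no probe of Hipk2, Hipk3 or Hipk4 was called. Hipk1 A_51_P147878 ranged from 2.80 through a median of 3.67 to 4.52 in TSA(–), all below the lowest IVF array at 4.57. The gap between the groups was narrow, and TSA(–) was spread more widely than IVF, with an SD of 0.63 (n = 8) against 0.20 (n = 6). The difference was -1.17 (SE 0.24), 2.25-fold lower, with an adjusted p of 0.00036 in limma.

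Ppp1r8 was lower by close to the same amount. A_51_P486132 ranged from 0.01 through 0.37 to 1.53 in TSA(–) and from 1.01 through 1.60 to 1.99 in IVF, a difference of -1.01 (SE 0.23, limma adjusted p = 0.00137). A_52_P33014 ranged from 1.13 through 1.52 to 2.82 in TSA(–) and from 2.10 through 2.82 to 3.15 in IVF, a difference of -0.99 (SE 0.28, limma adjusted p = 0.00819). On both probes a few TSA(–) arrays reached the IVF range, so the groups overlapped. The call of A_52_P33014 held in 5 of the 14 fits that left out 1 array, with an adjusted p of up to 0.0247, while the calls of A_51_P486132 and of Hipk1 A_51_P147878 held in all 14.

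Hipk3 A_51_P516756, which had risen by 3.81 from the oocyte, was 0.12 (SE 0.24) above IVF, from 1.71 through 2.10 to 2.45 in TSA(–). The 95% interval of this difference ran from -0.38 to 0.61, so a change of the size seen for Hipk1 lies outside it. Hipk2 differed by -0.24 (SE 0.24) and -0.27 (SE 0.24) on its probes. Its interval for A_52_P554845, from -0.75 to 0.21, leaves room for a fall of moderate size.

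Of the 11 member probes 3 were called, all lower, against 18.8% of all probes called and 10.3% called lower. Groups did not overlap for 1 of 11, against 14.8% of all probes. On the 3 slides that held arrays of both groups Hipk1 A_51_P147878 was lower in TSA(–) each time, by -1.81 to -0.80, and so were Ppp1r8 A_51_P486132, by -0.78 to -0.39, and A_52_P33014, by -0.82 to -0.29. Markers of the 2-cell embryo moved with these genes: 8 of their 9 probes (5 genes) were lower in TSA(–), with a summed signal of 154 to 212 times the 75th percentile in IVF and 36.1 to 109.8 times in TSA(–), and their part in the result was not tested. The oocyte markers summed to 861 to 962 in IVF and 729 to 878 in TSA(–). As Hipk1 and Ppp1r8 were on the study's list, their fall is a description of genes that it had chosen on these arrays.

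**Figure D3:**
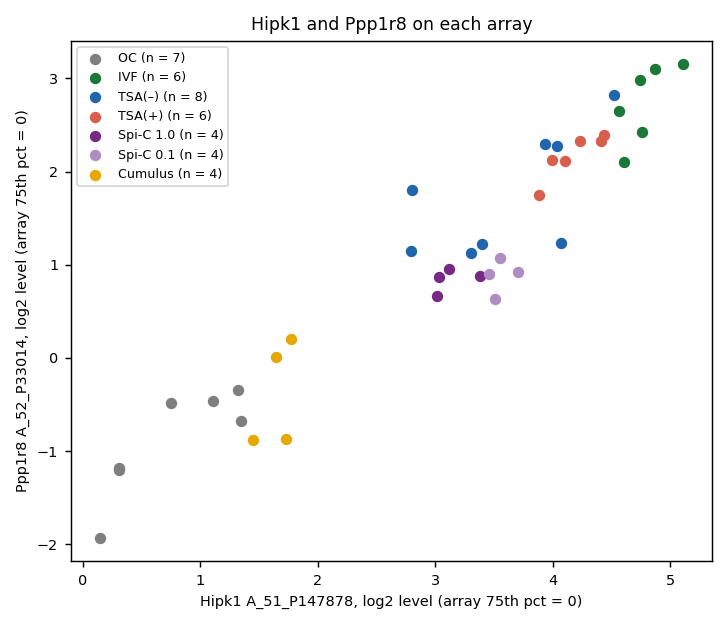
Level of Hipk1 A_51_P147878 (x axis) against Ppp1r8 A_52_P33014 (y axis), both log2 with the array 75th percentile at 0, 1 point for each of 39 arrays, coloured by group. OC and Cumulus arrays lie at the lower left, IVF arrays at the upper right and cloned embryos between them, with the 8 TSA(–) arrays spread from 2.80 to 4.52 on the x axis.

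TSA(+) embryos were compared with IVF and with TSA(–), to see whether the inhibitor moved these genes. The study's list also asked for a level in TSA(+) equivalent to that in IVF, so the position of Hipk1 and Ppp1r8 in TSA(+) is not independent evidence either. No member probe was called in either comparison at an adjusted p of 0.01 in limma. Hipk1 A_51_P147878 ranged from 3.88 through 4.17 to 4.44 in TSA(+), which lay below all IVF arrays and inside the upper part of the TSA(–) range. It was 0.57 above TSA(–) (95% interval 0.08 to 1.06, limma adjusted p = 0.221) and -0.60 from IVF (limma adjusted p = 0.0763).

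By its means, Ppp1r8 in TSA(+) also lay between TSA(–) and IVF. Its difference from TSA(–) was 0.36 (95% interval -0.12 to 0.84) on A_51_P486132 and 0.43 (-0.15 to 1.01) on A_52_P33014, and its difference from IVF was -0.65 and -0.56. Each interval holds both 0 and a difference nearly as large as, or larger than, that between TSA(–) and IVF.

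Hipk3 A_51_P516756 was the member most tightly grouped by treatment: 2.55 through 2.67 to 2.82 in TSA(+), above the highest TSA(–) and IVF arrays, both at 2.45. The difference was 0.53 from TSA(–) (95% interval 0.03 to 1.02, limma adjusted p = 0.271) and 0.65 from IVF (limma adjusted p = 0.06). Hipk2 A_52_P554845 lay on the other side, with -2.83 through -2.47 to -1.89 in TSA(+) against -2.52 through -1.85 to -1.37 in TSA(–). It differed by -0.52 from TSA(–) (95% interval -1.0 to -0.04, limma adjusted p = 0.267) and by -0.78 from IVF (limma adjusted p = 0.0186).

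In TSA(+) against TSA(–), 0.137% of all probes were called and 0 of 11 member probes, of which 3 had an unadjusted p under 0.05. Groups did not overlap for 1 member probe, Hipk3 A_51_P516756, against 1.47% of all probes. In TSA(+) against IVF, 18.9% of all probes were called and 0 of 11 member probes, with 4 at an unadjusted p under 0.05 and 2 without overlap (20.3% of all probes). The share of all probes with an unadjusted p under 0.05 is not given, so the counts of 3 and 4 are not set against a background. Both comparisons share the TSA(+) arrays. Within the 3 scan days that held TSA(+) and TSA(–), Hipk1 A_51_P147878 was higher by 0.21 to 1.34 and Hipk3 A_51_P516756 by 0.20 to 0.66, while Hipk2 A_52_P554845 was lower each time, by -0.83 to -0.33. Ppp1r8 differed little within these days, by 0.04 to 0.19 on A_51_P486132 and by -0.05 to 0.23 on A_52_P33014. Only 1 slide held both groups, with 1 array of each. There the differences were 1.61 for Hipk1 A_51_P147878, 0.63 for Hipk3 A_51_P516756 and -0.38 for Hipk2 A_52_P554845. For Ppp1r8 they were 0.57 on A_51_P486132 and 0.52 on A_52_P33014. With known changes set into simulated arrays of this comparison, 20% of the probes changed by 1 log2 unit and 67% of those changed by 2 were called. The changed probes were drawn at random from all probes, so these rates are averages over probes of differing spread. Over such probes a change of under 1 unit would mostly be missed, and the rate for the member probes was not measured.

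**Figure D4:**
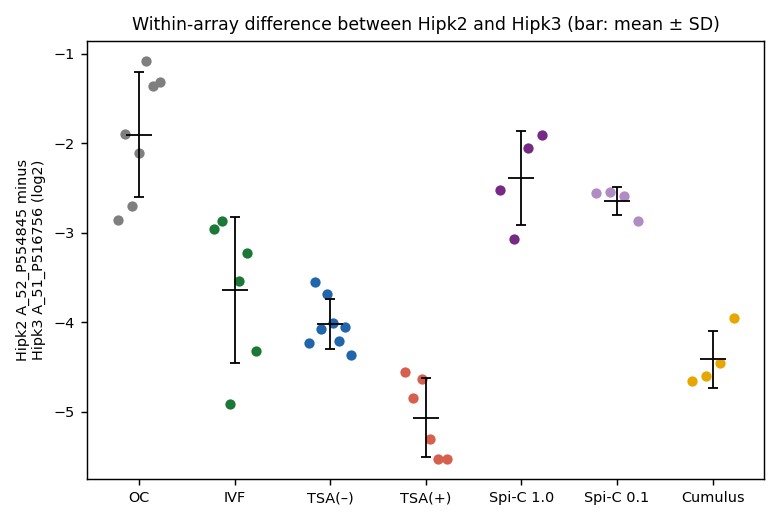
Within-array difference of Hipk2 A_52_P554845 minus Hipk3 A_51_P516756 (log2, y axis) on each array, by group, with mean ± SD. The 6 TSA(+) arrays all lie below the 8 TSA(–) arrays, and the Spi-C NT arrays lie above the TSA(–) arrays.

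Changes of different genes were set against each other within arrays, with the brightest probe of each gene. For a pair of probes, the difference between their levels was taken on each array and compared between groups with an exact two-sided permutation test, and the p-values were adjusted over all 72 such tests, with 0.05 as the threshold. Hipk2 A_52_P554845 and Hipk3 A_51_P516756 moved apart after TSA. Their difference, Hipk2 minus Hipk3, ran from -4.37 to -3.55 in TSA(–) and from -5.53 to -4.56 in TSA(+), without overlap. The shift was -1.05 (exact permutation p = 0.000333, adjusted p = 0.00344). Hipk1 A_51_P147878 moved away from the same Hipk2 probe by 1.09 in this comparison (exact permutation, adjusted p = 0.0259), with overlapping groups. The other probes were not tested between genes. Hipk2 A_51_P318292 differed by -0.22 between TSA(+) and TSA(–), Hipk3 A_52_P109010 by 0.74 and the dim Hipk3 A_52_P76829 by -0.40. None of these was called, so a divergence by all probes of Hipk2 and Hipk3 is not shown.

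Between TSA(–) and IVF the change of Hipk1 minus that of Hipk3 was -1.29 (exact permutation, adjusted p = 0.00514), and the change of Hipk3 minus that of Ppp1r8 was 1.11 (exact permutation, adjusted p = 0.0139). In IVF against OC the rise of Hipk1 exceeded that of Hipk2 by 1.95, and the rise of Hipk2 minus that of Ppp1r8 was -1.56 (exact permutation, adjusted p = 0.00344 for both). The study's list was chosen on these arrays for a rise from OC to IVF, a lower level in TSA(–) and a level in TSA(+) like that in IVF, so the tests that hold Hipk1 or Ppp1r8 are not independent evidence of a direction. In all, 17 of the 40 tests between genes passed, 7 in IVF against OC, 2 in TSA(–) against IVF, 2 in TSA(+) against TSA(–) and 6 in Spi-C NT against TSA(–). Those with Hipk4 rest on a probe near background.

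Spi-C mRNA embryos were compared with TSA(–), to see which genes differ when the factor is supplied. The groups shared no slide, scan day or scanner model, and no group is labelled as injected with another mRNA. Neither the scan nor the injection itself can therefore be told apart from the factor here. Hipk2 was higher in Spi-C NT by both probes, and 1 probe each of Hipk1, Hipk3 and Ppp1r8 was lower. Hipk2 A_52_P554845 was at -1.04, -1.31, -0.36 and -0.28 on the arrays at 1.0 mg/ml and at -0.96, -0.83, -0.67 and -1.01 at 0.1 mg/ml. All 8 lay above the highest TSA(–) array at -1.37, and the difference was 1.08 (SE 0.22, limma adjusted p = 0.000471) or 2.11-fold. The other Hipk2 probe was higher by 0.81 (SE 0.20, limma adjusted p = 0.00305).

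Ppp1r8 A_52_P33014 was at 0.96, 0.87, 0.88 and 0.67 at 1.0 mg/ml and at 0.92, 1.07, 0.63 and 0.90 at 0.1 mg/ml. All 8 arrays lay below the lowest TSA(–) array at 1.13, with a difference of -0.88 (SE 0.22, limma adjusted p = 0.00261). A_51_P486132 differed by -0.44 (limma adjusted p = 0.0932). The mean of each Ppp1r8 probe was thus farther from IVF in Spi-C NT than in TSA(–), and the difference was called on 1 of the 2.

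Hipk1 A_51_P147878 stood at 3.12, 3.04, 3.38 and 3.02 at 1.0 mg/ml and at 3.70, 3.55, 3.51 and 3.46 at 0.1 mg/ml, inside the TSA(–) range, with a difference of -0.26 (SE 0.19, limma adjusted p = 0.322). A_52_P268687 was lower by -1.34 (SE 0.30, limma adjusted p = 0.00112). Hipk3 A_51_P516756 was lower by -0.43 (SE 0.12, limma adjusted p = 0.00656), a call that held in 8 of the 16 fits without 1 array.

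Of the 11 member probes 2 were higher and 3 lower than in TSA(–), where 20.7% of all probes were called, 11.5% as higher and 9.2% as lower, and 2 member probes had groups that did not overlap, against 9.45% of all probes. The count fell to 3 when all 7 groups or only the groups compared entered the fit. Against IVF 5 member probes were called, 1 higher and 4 lower, where 35.9% of all probes were, 18.6% as higher and 17.3% as lower: Hipk2 A_52_P554845 was higher by 0.81 (in 8 of 14 fits without 1 array), Hipk1 differed by -1.43 and -2.06 on A_51_P147878 and A_52_P268687, and Ppp1r8 by -1.45 and -1.87 on A_51_P486132 and A_52_P33014. These comparisons share the Spi-C NT arrays. Of the 9 marker probes of the 2-cell embryo 3 were lower than in TSA(–) and 8 lower than in IVF, with sums of 46.4 to 65.6 at 1.0 mg/ml and 31.0 to 64.4 at 0.1 mg/ml, and their part in the result was not tested.

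No member probe was called between the concentrations of Spi-C mRNA. In limma 0 of 11 probes were called between 1.0 and 0.1 mg/ml, 0 had an unadjusted p under 0.05, and 0.00506% of all probes were called. Hipk1 A_51_P147878 was lower on each array at 1.0 mg/ml than on any at 0.1 mg/ml, by -0.42 (95% interval -0.98 to 0.14), and it was 1 of 2 member probes without overlap, the other being Hipk4 near background, against 3.34% of all probes. With 4 arrays on each side the intervals are wide.

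Cumulus cells, the source of the donor nuclei, were compared with OC and IVF. Hipk2 was lower in cumulus cells than in both, and the probes of Hipk1 and of Hipk3 gave different orders. Hipk1 A_51_P147878 was at 1.44, 1.77, 1.64 and 1.73, above every OC array by a mean of 0.89 (SE 0.28, a call that held in 5 of 11 fits without 1 array) and -3.13 (SE 0.28) from IVF. Hipk1 A_52_P268687, in contrast, was at 5.40, 5.69, 5.99 and 5.73, called higher than OC and 2.74 (SE 0.64) above IVF. Hipk2 A_52_P554845 was at -5.69, -5.41, -5.00 and -4.94, -1.57 (SE 0.27) from OC and -3.64 (SE 0.28) from IVF.

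Hipk3 showed the same split. A_51_P516756 was at -1.03, -0.81, -0.54 and -0.99, -2.86 (SE 0.29) from IVF, while A_52_P109010 was at 6.39, 5.96, 6.48 and 6.97, 7.07 (SE 0.79) above IVF. The A_51_P516756 call against OC (0.94, SE 0.28) was lost without Cumulus replicate 3. Ppp1r8 A_52_P33014 was at -0.88, 0.21, 0.01 and -0.87, close to OC (0.51, SE 0.33, limma adjusted p = 0.153) and -3.12 (SE 0.34) from IVF. Hipk4 was well above background on 2 of 4 Cumulus arrays and on no IVF array, at least 1.74-fold higher than in IVF, which held in 4 of 10 fits without 1 array. Against OC 5 member probes were higher and 2 lower, where 67.8% of all probes were called, 23.4% as higher and 44.4% as lower. Against IVF 3 were higher and 7 lower, where 55.2% of all probes were called, 23.9% as higher and 31.3% as lower.

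**Figure D5:**
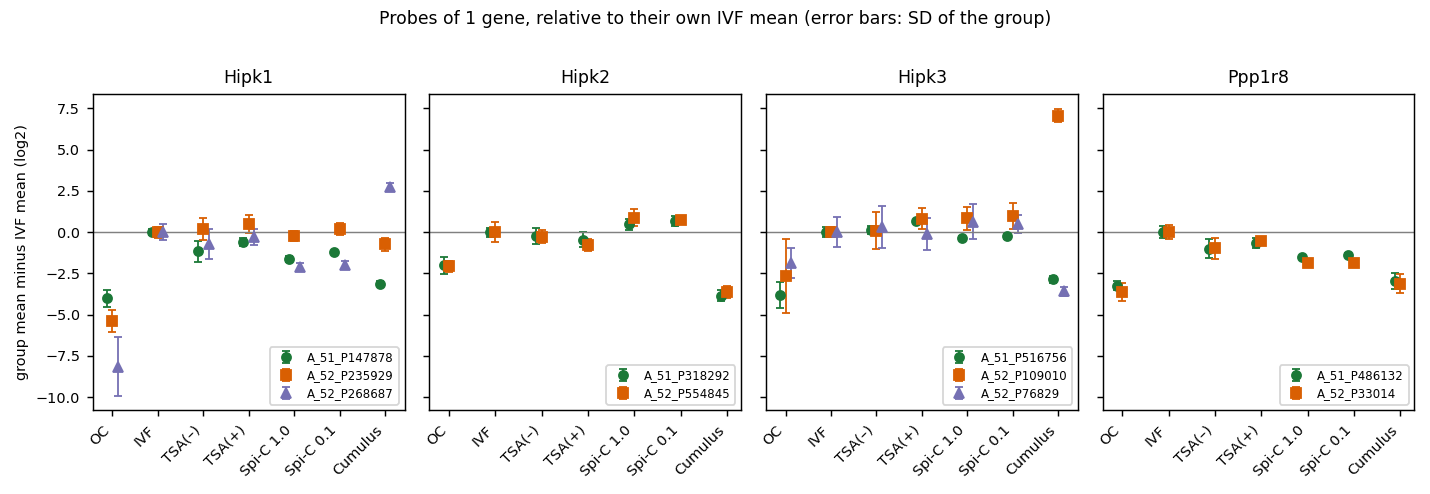
Group mean of each probe of Hipk1, Hipk2, Hipk3 and Ppp1r8 minus the IVF mean of the same probe (log2, y axis), with the SD of the group as error bars. The probes of Hipk2 and of Ppp1r8 run close together, while in Cumulus Hipk1 A_52_P268687 (2.74) and Hipk3 A_52_P109010 (7.07) lie above IVF and the other probes of these genes below it.

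The probes of a gene did not all tell the same story. Across the 39 arrays, as a description over samples that share groups, the levels of the Ppp1r8 probes had a Pearson correlation of 0.987 and those of the Hipk2 probes one of 0.933. The Hipk1 probes correlated at 0.828 (A_51_P147878 with A_52_P235929), 0.630 (A_51_P147878 with A_52_P268687) and 0.813. For Hipk3 the correlation was 0.0686 between A_51_P516756 and A_52_P109010, 0.693 between A_51_P516756 and the dim A_52_P76829, and -0.276 for the remaining pair. The transcript accessions given for A_51_P147878, A_52_P268687 and A_52_P109010 differ between versions of the array design, so what transcripts of Hipk1 and Hipk3 these probes read is not settled here.

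The changes seen by probes of 1 gene were also tested against each other within arrays, and 11 of 32 such exact permutation tests passed. In TSA(–) against IVF, the change of Hipk1 A_51_P147878 minus that of A_52_P235929 was -1.37 (exact permutation p = 0.000333, adjusted p = 0.00344), and A_52_P235929 itself differed by 0.20 (SE 0.30) and was not called. The fall of Hipk1 in cloned embryos is thus a result of A_51_P147878, with -0.72 (SE 0.54, limma adjusted p = 0.36) on A_52_P268687. In TSA(+) against TSA(–) 0 of 8 tests passed. In Spi-C NT against TSA(–) the Ppp1r8 probes differed by 0.44 and Hipk1 A_51_P147878 and A_52_P268687 by 1.08 (exact permutation p = 0.000155, adjusted p = 0.0028 for both, the smallest p the test allows). There the change of Hipk3 A_51_P516756 minus that of A_52_P109010 was -1.26 (exact permutation, adjusted p = 0.0196). In IVF against OC 5 of 8 tests passed, of which 4 hold a probe that was not well above background on most OC arrays, so no size is given for them.

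The order of the levels of Hipk1 A_51_P147878 was IVF, TSA(+), TSA(–), Spi-C at 0.1 mg/ml, Spi-C at 1.0 mg/ml, Cumulus and OC, from the highest mean of 4.78 to the lowest of 0.75. Neighbours overlapped for TSA(+) and TSA(–) and for TSA(–) and Spi-C at 0.1 mg/ml, and the others did not. Ppp1r8 A_52_P33014 had the same order of groups, with means of 2.74, 2.17, 1.74, 0.88, 0.84, -0.38 and -0.90. Its neighbours overlapped except for TSA(–) against Spi-C at 0.1 mg/ml and Spi-C at 1.0 mg/ml against Cumulus. Over the 39 arrays Hipk1 A_51_P147878 correlated with the Ppp1r8 probes at 0.962 and 0.953 and with Hipk3 A_51_P516756 at 0.931, in samples that fall into the same groups.

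Among 22697 probes compared, the genes with levels most like Hipk1 A_51_P147878 over the 39 arrays were Cbll1, with a Pearson correlation of 0.971, Rlim, with 0.969, and Zfp599, with 0.968. For Ppp1r8 A_52_P33014 they were Zfp54 with 0.965, Eloa with 0.964 and Rlim with 0.953. These are descriptions across groups, and Rlim was among the 3 for both genes.

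Other genes of these pathways are given as 4 lists, by the counts of probes called, with the same shares over all probes. Detection above background was not checked for the probes of these lists, so the sizes of large rises from OC are uncertain. Proteins that HIPK kinases bind or phosphorylate were measured by 35 probes of 21 genes. From OC to IVF 9 of their probes rose and 18 fell, where 23.3% of all probes rose and 42.7% fell, with a median difference of -1.01 against -0.88 over all probes. The largest rise was Zbtb4, a methyl-CpG binding repressor that HIPK2 phosphorylates, at 6.42 (SE 0.56), and the largest fall was Ctbp2, a corepressor, at -3.77 (SE 0.20). In TSA(–) against IVF 0 were higher and 7 lower, with Zbtb4 lowest at -3.19 (SE 0.54), where 8.49% of all probes were higher and 10.3% lower. The list's median difference there was -0.28, against -0.05 over all probes. In TSA(+) against IVF 1 was higher, the chromatin chaperone Daxx at 0.64 (SE 0.15), and 11 lower, where 7.83% of all probes were higher and 11.1% lower. In Spi-C NT against TSA(–) 5 were higher, with Tcf7l1 at 2.21 (SE 0.48), and 5 lower, with Myb at -1.25 (SE 0.35), where 11.5% of all probes were higher and 9.2% lower.

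The related DYRK and CLK kinases, which act on splicing factors among others, were measured by 20 probes of 9 of the 10 listed genes. From OC to IVF 7 probes rose and 11 fell (23.3% and 42.7% of all probes), with Clk4 highest at 2.84 (SE 0.37) and Clk2 lowest at -4.79 (SE 0.23). Between TSA(–) and IVF 5 were higher in TSA(–) and 3 lower (8.49% and 10.3% of all probes), with Prpf4b at 1.27 (SE 0.26) and Dyrk1a at -1.04 (SE 0.16). In Spi-C NT against TSA(–) Dyrk1b was higher by 1.48 (SE 0.11) among 2 higher, and Clk1 lower at -1.22 (SE 0.11) among 4 lower, where 11.5% of all probes were higher and 9.2% lower.

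The catalytic and regulatory subunits of PP1, the enzyme that NIPP1 binds, were measured by 43 probes of 25 of the 26 listed genes. From OC to IVF 15 probes rose and 16 fell, where 23.3% of all probes rose and 42.7% fell. Ppp1r15b, which directs PP1 to the translation factor eIF2α, rose by 9.79 (SE 0.45), and Ppp1r2, an inhibitor of PP1, fell by 4.6 (SE 0.55). TSA(–) exceeded IVF by 6 probes and fell below it by 0, with Ppp1r14a, a smooth muscle PP1 inhibitor, highest at 2.15 (SE 0.60), where 8.49% of all probes were higher and 10.3% lower. The list's median difference there was 0.13, against -0.05 over all probes. In TSA(+) against IVF 8 were higher and 0 lower (7.83% and 11.1% of all probes). Of the same probes 2 were higher and 10 lower in Spi-C NT against TSA(–) (11.5% and 9.2% of all probes), with Ppp1r9a at -1.75 (SE 0.40).

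Of 8 probes for 6 partners of NIPP1, 2 rose and 6 fell from OC to IVF, where 23.3% of all probes rose and 42.7% fell. By gene, 2 had a probe that rose and 5 had a probe that fell, so some probes of the same gene moved in opposite directions. The largest rise was that of 1 probe of the splicing factor Cdc5l, by 7.96 (SE 0.30). The largest fall was that of 1 probe of Sf3b1, another, by 4.24 (SE 0.21). In limma 0 of the 8 were called in TSA(–) against IVF and 0 in TSA(+) against IVF, with 3 at an unadjusted p under 0.05 in each, where 18.8% and 18.9% of all probes were called. In Spi-C NT against TSA(–) 3 were lower and 0 higher (9.2% and 11.5% of all probes), and Ezh2, the Polycomb methyltransferase, differed by -0.73 (SE 0.09). In TSA(+) against TSA(–) 0 probes of these 4 lists were called in limma, where 0.137% of all probes were. For 3 of 35, 2 of 20, 7 of 43 and 1 of 8, in the order given here, the unadjusted p was under 0.05. The share of all probes at that unadjusted threshold is not given for any of these counts, so they are not set against a background.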

How the data were processed

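Gene expression had been measured on 39 one-colour arrays of the 44K Agilent mouse design. Per the labels, the authors scanned them and extracted signals with Agilent Feature Extraction 9.5.3.1, and the headers of the Cumulus and Spi-C NT arrays name a later version. The deposited processed intensity of each spot is background-subtracted and corrected for trends across the slide, with no normalization between arrays. The deposited median intensity of spot and local background is uncorrected and was used for normexp. The authors also deposited a table of log2 values. Set against the scanner values, these lay within 0.01 of the array's own log2 signal after subtraction of its 75th percentile and then of the probe's median for 74.6% of values (median absolute deviation 0.0054), in the same direction, and they served as an alternative.

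From each log2 processed signal the 75th percentile of its array was subtracted, outlier spots were left out, spots of a probe were averaged, and probes of a gene were kept apart. Of 41174 probes, 39517 were tested, all 11 members among them, because their intensity reached 10 on 1 or more arrays of IVF or cloned embryos. Spots were named by accession through RefSeq. Limma 3.58.1 (R 4.3.3, with statmod 1.5.0 for blocks) gave the differences between groups, called at 0.01 after Benjamini-Hochberg adjustment. One fit held all groups but Spi-C NT, and another all groups but OC and Cumulus, with Spi-C NT as the mean of its concentrations. Exact permutation tests compared changes of probe pairs. Limma was tested on simulated data. The number of arrays limits the precision.

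The named genes are all probes of the 5 members, from each of 4 lists the called gene with the largest difference in each direction, and the 3 genes most correlated with Hipk1 and with Ppp1r8. The members and lists were chosen with earlier results of these data known. Alternatives were another centring, quantile normalization, normexp with an offset of 50, the authors' values, other filters, other sets of groups in the fit, an adjusted p under 0.05, the methods' one-way test with Tukey's HSD, blocks for slide, scan day and replicate number, and each array left out in turn. The leukocyte and blood markers, measured by 4 probes of 2 genes, had sums of at most 1.55 times the 75th percentile on any array. They summed to 0.42 to 1.55 in Cumulus, above the 2-cell markers there at 0.038 to 0.16. Of their 4 probes 2 were called higher in Cumulus than in OC and 1 higher than in IVF. Figures were drawn with matplotlib 3.10.9 in Python 3.11.15.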

Additional observations from a re-analysis of the deposited data

Results flagged for a closer look

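In 3 of 77 groups of a probe's levels 1 array stood apart from the rest of its group by Dixon's test at the 95% level, which chance gives in about 1 group in 20. For Hipk1 A_52_P235929 it was replicate 2 of Spi-C at 1.0 mg/ml, with a level of -2.08 against -1.52, -1.43 and -1.52 on the other arrays. For Hipk2 A_51_P318292 it was IVF replicate 5, at -3.02 against a group median of -2.39. For the dim Hipk3 probe A_52_P76829 it was IVF replicate 2, at -3.27 against a group median of -5.27.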

How the results depend on the processing

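The counts of called member probes kept within 1.5 times of their value under all alternatives except in 2 comparisons. In TSA(+) against IVF the count of 0 became 1 with quantile normalization, 2 with normexp, 2 with only the groups compared and 2 at an adjusted p under 0.05, and 0 to 1 when 1 array was left out. In Spi-C NT against TSA(–) the count of 5 became 3 with all 7 groups in the fit, 3 with only the groups compared and 0 with the replicate block, and 4 to 5 when 1 array was left out. Between probes of 1 gene 8 to 14 tests passed under the alternatives, against 11, and between genes 16 to 19, against 17. The Ppp1r8 A_52_P33014 call in TSA(–) against IVF was also lost with median centring, with only the groups compared and with Tukey's HSD. The cause of these moves was not tested.

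Replicate numbers did not pair the samples: deviations of same-numbered arrays from their group means correlated at -0.087 to 0.151, and 1 pair exceeded 0.1. With the replicate block, the count of called member probes was 10 in IVF against OC, 3 in TSA(–) against IVF, 6 in Cumulus against OC and 0 in Spi-C NT against TSA(–), and in TSA(–) against IVF the differences of Hipk1 A_52_P235929 (-0.027) and Hipk3 A_52_P109010 (-0.36) turned. The correlation within slides was 0.032 and 0.062 in the 2 fits, and within scan days -0.0040 and 0.019.

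Other differences that turned were small or of dim probes. With median centring Hipk3 A_52_P76829 gave 0.11 in TSA(+) against IVF (0.23 with quantile normalization) and Hipk1 A_52_P235929 gave 0.15 in Cumulus against IVF. With quantile normalization Hipk4 gave 0.27 in IVF against OC and 0.38 in TSA(–) against OC. With normexp Hipk3 A_52_P76829 gave -0.85 in IVF against OC, -0.80 in TSA(–) against OC, -0.13 in Spi-C NT against TSA(–) and -0.089 in Spi-C NT against IVF. With normexp Hipk4 gave -0.25 in TSA(–) against IVF, -0.15 in TSA(+) against IVF, -0.89 in Cumulus against OC, -0.32 in Spi-C NT against TSA(–) and -0.57 in Spi-C NT against IVF, and Ppp1r8 A_51_P486132 gave -0.0092 in Cumulus against OC. The change of Hipk1 A_51_P147878 minus that of A_52_P235929 in IVF against OC, where the OC signal of the latter is at background, turned to 2.42 with normexp.

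With 1 array left out, the sign turned for 10 differences that were not called, given here by their lowest and highest values. In Spi-C at 1.0 against 0.1 mg/ml these were Hipk2 A_52_P554845 (-0.031 to 0.31), Hipk3 A_52_P109010 (-0.48 to 0.18), Hipk3 A_52_P76829 (-0.10 to 0.68) and Ppp1r8 A_52_P33014 (-0.12 to 0.024). The others were Hipk1 A_52_P235929 in Spi-C NT against IVF (-0.11 to 0.06), Hipk3 A_52_P76829 in Spi-C NT against TSA(–) (-0.0052 to 0.51) and in TSA(+) against IVF (-0.37 to 0.24), Hipk4 in TSA(+) against TSA(–) (-0.078 to 0.94) and in TSA(–) against IVF (-0.18 to 0.31), and Hipk3 A_52_P109010 in TSA(–) against IVF (-0.10 to 0.35).

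Over all probes, 54 were called in TSA(+) against TSA(–), against 371 with normexp, 118 with all 7 groups, 11 with only the groups compared, 512 at an adjusted p under 0.05, 797 with Tukey's HSD, 76 with quantile normalization and 21 to 94 without 1 array. In Spi-C NT against TSA(–) 8176 were called, against 16990 with normexp. The share of calls that were higher moved from 35.4% to 24.5% with median centring and 18.5% with normexp in IVF against OC, from 41.3% to 59.4% with median centring in TSA(+) against IVF, from 43.2% to 63.3% with median centring in Cumulus against IVF, and from 55.5% to 36.1% with median centring and 22.7% with normexp in Spi-C NT against TSA(–).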
